A study of Mus musculus with 47 samples.

Results

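Cytochromes P450 of families 2 and 3 are haem enzymes of the endoplasmic reticulum that oxidise drugs, steroids, fatty acids and bile acids, and hepatocytes make most of them. They were examined here in mice fed a methionine-restricted diet. The members were all gene symbols in the liver count table that read Cyp2 or Cyp3, 1 subfamily letter and a number, with a mean raw count of at least 10 over the 12 liver libraries. That table has 26608 symbols, of which 52 had the form, and 31 reached the minimum. They were 10 genes of Cyp2c, 7 of Cyp2d, 4 of Cyp3a, 3 of Cyp2j, 2 of Cyp2a, and 1 each of Cyp2b, Cyp2e, Cyp2f, Cyp2r and Cyp2u. Cyp2c54 and Cyp2c37 stood just inside the minimum, with mean counts of 12.9 and 13.7. Cyp2s1, Cyp2g1 and Cyp2c55 stood just outside, with means of 9.08, 9 and 8.75. Of the 21 symbols below the minimum, 9 had no count in any liver library.

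The animals were 12 male C57BL/6J mice, an inbred strain, kept at 23 C with free access to food. From 5 weeks of age, 6 mice ate a control diet (CON) and 6 a methionine-restricted diet (MR) for 11 weeks, and tissue was taken after a 5 h fast. Each mouse gave liver, inguinal white fat, interscapular brown fat and gastrocnemius muscle, except that 5 MR libraries of gastrocnemius were analysed, for 47 libraries in 8 groups. No allele or drug was added in any group, and all mice were male, so female animals cannot be compared.

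Microsomal P450s take electrons from cytochrome P450 reductase. The nuclear receptors CAR (Nr1i3) and PXR (Nr1i2) switch on many Cyp2b, Cyp2c and Cyp3a genes when foreign chemicals arrive. In rodents several members also differ between the sexes, because pulses of growth hormone in males and steadier hormone in females set their transcription. Cyp2d9 is a textbook male-biased gene, and Cyp2b9 and Cyp2c69 are female-biased genes.

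The libraries were 3′ tag libraries: transcripts are cut at the NlaIII site CATG nearest their 3′ end and a short tag beside it is sequenced, so a level counts transcripts and is not scaled to length. Because neighbouring P450 genes are near copies, the predicted tag decides which members can be told apart. The tags below, the site and the 23 bases after it, were read from GENCODE vM1 protein-coding transcripts. Genes with no such transcript, such as pseudogenes, were not searched. They are shown for the 6 members whose liver level changed with diet, with the NlaIII site in capitals.
Cyp2c38: CATGtctcagtcttaaaggaagctcct
Cyp2c69: CATGgaagccctcatttaacccagtcc
Cyp2c70: CATGgatggctgagaccctgcttcttc
Cyp2d12: CATGtagaataaactagtcttgtggtt
Cyp2d40: CATGgagctcttcctcttcttcacctg
Cyp2j6: CATGatattacaggttttaataaagaa

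A transcript model was found for 30 of the 31 members, with the tag in the 3′ UTR of 21 and in the coding part of 9. The predicted tag of 5 members was also found in another gene, against 10.24% of the 22080 genes with a tag. Those 5 were Cyp2c37, Cyp2c54, Cyp2c68, Cyp2d26 and Cyp2d40. Cyp2d40 carried the same 27 bases as Cyp2d26, and a transcript of Cyp2d22 holds them too. Per the labels, tags with more than 1 place among the genes were dropped, and the counted tags themselves were not analysed here, so counts of these 5 genes may come from other sites and are uncertain. The other 5 genes that changed had a tag of their own among the protein-coding transcripts searched. The transcript models of Cyp2c70 and Cyp2d12 each gave 2 different tags. The tag of Cyp2d12 shown above differed from the tag of the far more abundant Cyp2d9 at 3 positions. The tags of the Cyp2d neighbours are set out next, with the positions at which any of the 3 differ in capitals.
Cyp2d9: catgTaTaataaacTaGtcttgtgTCt
Cyp2d10: catgCaAaataaacCaAtcttgtgGCt
Cyp2d12: catgTaGaataaacTaGtcttgtgGTt

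Liver libraries held between 7710740 and 12130444 counts, and 3 counts, the upper limit that a count of 0 allows, were 0.247 to 0.389 CPM, the tag count relative to the library's total. This limit covers counting error only. The median rank correlation of a liver library with the others lay between 0.962 and 0.972, and none stood apart. In the other tissues it ran down to 0.628 in inguinal fat, where CON3106, CON3115 and MR3116 stood apart, and to 0.582 in gastrocnemius, where MR3101 did. The summed level of 18 hepatocyte markers in liver was 198400 to 275760 CPM in CON and 154720 to 240190 CPM in MR. Of 53 tested markers of 8 other cell types in liver, edgeR called 0, beside 2.26% of all genes. At an unadjusted p under 0.05 stood 8 of the 53, beside 14.5% of all genes. DESeq2 called 2 of the 53, beside 490 of 10969 genes. On the library-total scale the summed liver endothelial markers did not overlap between diets, at 453 to 567.75 CPM in CON and 583 to 672 in MR, and the Kupffer cell and macrophage sum had medians of 323 in CON and 422 in MR with overlapping ranges. The part of these cells in the diet differences below was not tested. Diet values below are CPM scaled with TMM factors, which set the typical gene equal between libraries. These factors averaged 0.941 in CON and 1.07 in MR livers, and with library totals alone the median of all genes tested moved from 0.01 to 0.19 on the log2 scale. In bulk liver, fewer cells of a type and less RNA per cell cannot be told apart.

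The 31 genes together made up much the same share of the liver tags on both diets. It was 0.9% to 1.12% in CON and 0.93% to 1.11% in MR livers, and the ranges overlapped almost fully. Cyp2d9, Cyp3a11, Cyp2d10, Cyp2e1 and Cyp2f2 alone held 57.3% to 68% of the members' tags in CON and 59.1% to 66.1% in MR. None of these 5 abundant genes passed the test for diet. The genes that changed were among the less abundant ones, apart from Cyp2c70.

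In the liver comparison, 2 members rose under restriction (Cyp2c38 and Cyp2c69) and 4 fell (Cyp2d12, Cyp2j6, Cyp2d40 and Cyp2c70). The test was edgeR's quasi-likelihood F test with Benjamini-Hochberg adjustment over 10969 genes, at an adjusted p under 0.05. That is 19.4% of the members, beside 2.26% of all genes tested. By direction, 6.45% of the members rose beside 1.05% of all genes, and 12.9% fell beside 1.21%. At an unadjusted p under 0.05 stood 16 members, 7 positive and 9 negative, or 51.6% beside 14.5% of all genes. The median absolute log2 fold change was 0.397 over the members and 0.165 over all genes, while the signed medians were -0.09 and 0.01. With library totals alone the members split into 4 higher and 2 lower, and all genes into 548 higher and 79 lower in place of 115 and 133. In 1 fit of all 47 libraries, whose spread is shared by the 4 tissues, Cyp2d12 alone kept its call (adjusted p 0.0475). Cyp2c38 and Cyp2j6 had adjusted p of 0.656 and 0.974 there. That fit called 29 of all 13541 genes by diet in liver, where the fit of liver alone called 248 of 10969.

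**Figure D1:**
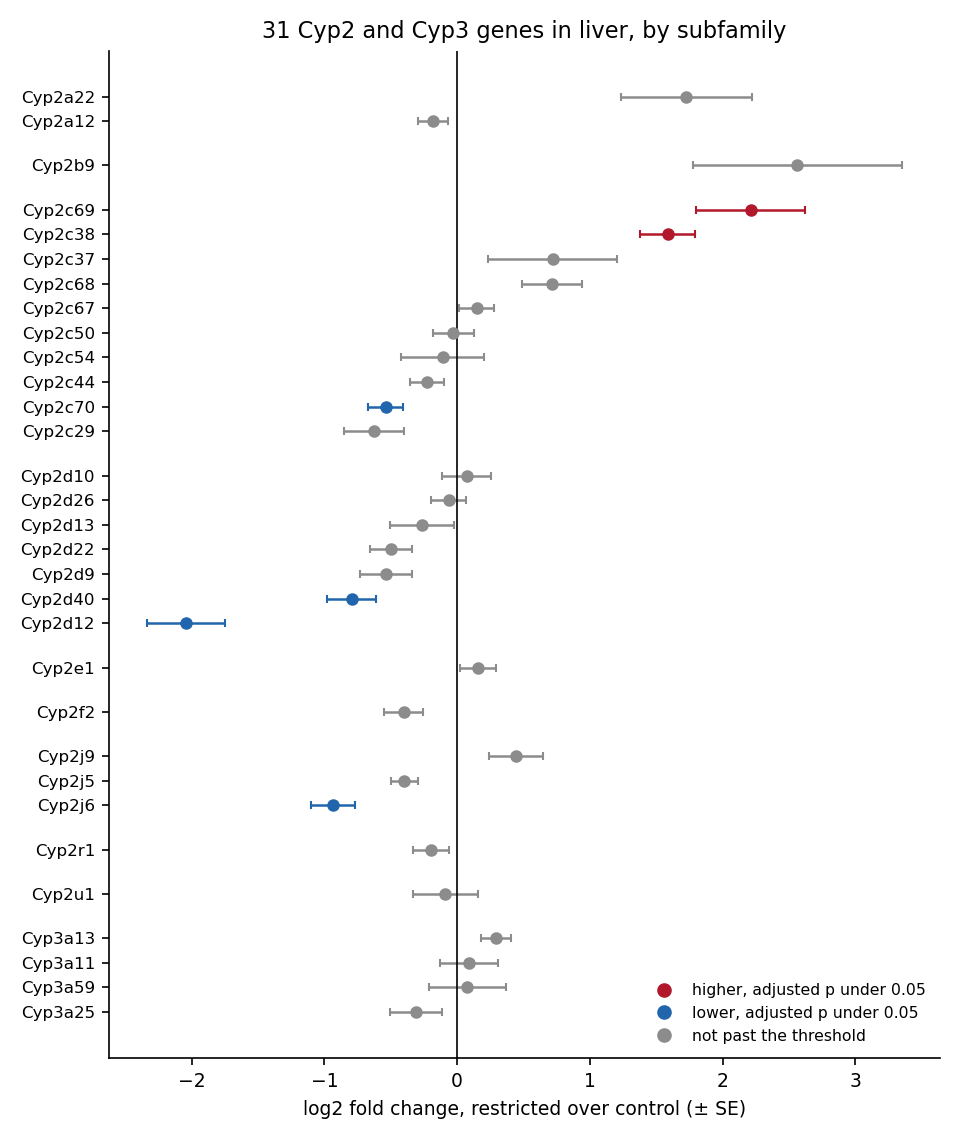
Log2 fold change of restricted over control livers (x axis, with 1 standard error) for each of the 31 genes (y axis), grouped by subfamily; red and blue points passed the test. Red points are the 2 Cyp2c genes that rose and blue points the 4 genes that fell, and grey Cyp2b9 lies farthest to the right with the widest error.

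The Cyp2c subfamily, arachidonic acid epoxygenases and drug and bile acid hydroxylases, held changes in both directions. Its 10 genes lie on chromosome 19 (RefSeq, GRCm38.p6), 9 of them between 39287044 and 40187286. Of the 10, 2 rose, 1 fell and 7 did not pass. The subfamily sum on the library-total scale was 1898 ± 246 CPM in CON and 1964 ± 162 in MR (SD, n = 6 each). The sum thus differed by less than the spread between animals.

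Cyp2c38, an arachidonic acid epoxygenase at 39389556 to 39463103 on chromosome 19, ranged in CON livers from 9.66 to 17.8 CPM with a median of 11.1. In MR livers it ranged from 23.1 to 57.2 CPM with a median of 33.7. Every MR library lay above every CON library, and MR3113 was the highest. The log2 fold change was 1.59 ± 0.21 (SE, n = 6 per diet, adjusted p 0.000534), and it was 1.395 (adjusted p 0.000816) without MR3113. In all, 4 members had TMM-scaled levels that did not overlap between the diets, or 12.9%, beside 2.47% of all genes. Of these, 2 lay higher, beside 1.18% of all genes, and 2 lower, beside 1.29%.

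Cyp2c69, a member of known female-biased expression at 39842660 to 39886769, was scarce in these males. CON livers held 0.195 to 3.70 CPM with a median of 1.73, and the lowest library, CON3107, had 2 tags. MR livers held 4.36 to 14.0 CPM with a median of 6.46. The diets did not overlap, with a log2 fold change of 2.21 ± 0.41 (adjusted p 0.00865). Of the fits tried, only that of all 47 libraries ended the call (adjusted p 0.0884).

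Cyp2c70, the enzyme that turns bile acids into muricholic acids in mice, lies at 40153361 to 40187286 and was 1 of the abundant members. Its level ran from 326 to 559.6 CPM in CON with a median of 372, and from 254 to 311 CPM in MR with a median of 281. All 6 MR libraries lay below the lowest CON library on the TMM scale. On library totals the diets overlapped, with CON3103 at 313 CPM beside 333.5 in MR3104 and 321 in MR3116. The log2 fold change with library totals alone was -0.35 (adjusted p 0.102). Restriction gave a log2 fold change of -0.54 ± 0.13 (adjusted p 0.0459). The call was lost in 15 of 21 alternatives, among them 9 of the 12 fits without 1 animal (adjusted p up to 0.098), and the direction stayed the same.

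Among the Cyp2c genes that did not pass, Cyp2c67 was the most abundant, with 374 to 623 CPM in CON and 502 to 696 in MR (log2 fold change 0.15 ± 0.13, adjusted p 0.66). Cyp2c29, a CAR-responsive epoxygenase, ran from 96.1 to 209.7 CPM in CON and from 59.1 to 156.8 in MR (-0.63 ± 0.23, adjusted p 0.201). The ranges of both genes overlapped widely between the diets. Cyp2c68 had 1.55 to 3.08 CPM in CON and 2.32 to 6.00 in MR (0.71 ± 0.23, adjusted p 0.133), and with library totals alone it passed (adjusted p 0.041). Cyp2c37, at 0.103 to 2.26 CPM in CON and 1.08 to 2.89 in MR (0.72 ± 0.49, adjusted p 0.54), rested on as few as 1 tag in a library. Cyp2c50, Cyp2c54 and Cyp2c44 had log2 fold changes of -0.03, -0.11 and -0.23. The predicted tags of Cyp2c37 and Cyp2c54 are identical and that of the abundant Cyp2c50 is nearly so; capitals mark the position that differs.
Cyp2c37: catggagctgttcctGttcctaaccag
Cyp2c54: catggagctgttcctGttcctaaccag
Cyp2c50: catggagctgttcctAttcctaaccag

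The Cyp2d genes, steroid and drug hydroxylases on chromosome 15, leaned lower. Of 7 genes, 2 fell, 5 did not pass and 6 had a negative log2 fold change, with a subfamily median of -0.50. With library totals alone Cyp2d12 stayed past the threshold at -1.87, Cyp2d40 missed it at -0.60 (adjusted p 0.0569), and Cyp2d26 changed sign to 0.12. The subfamily sum, carried by Cyp2d9 and Cyp2d10, was 3715 ± 729 CPM in CON and 3482 ± 457 in MR on the library-total scale. Its groups differed by less than the spread between animals.

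Cyp2d12, at 82555043 to 82559413, was the member with the largest fall that passed. It ran from 1.77 to 4.795 CPM in CON with a median of 3.21, and from 0.462 to 1.2 in MR with a median of 0.66. Every MR library was below every CON library, on 4 to 51 tags a library. Its log2 fold change was -2.04 ± 0.29 (adjusted p 0.00124), and the call held in all 20 alternatives that gave a value.

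Cyp2d40, at 82759833 to 82764122, had 8.54 to 17.2 CPM in CON with a median of 14.8 and 6.38 to 10.2 in MR with a median of 7.92. CON3103 and CON3107 lay inside the MR range, so the diets overlapped. Its log2 fold change was -0.79 ± 0.19 (adjusted p 0.0365), and the call was lost in 14 of 21 alternatives, among them 9 of the 12 fits without 1 animal (adjusted p up to 0.0862). Its predicted tag is shared, as given above, and which transcripts its counts come from was not tested.

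Cyp2d9, a testosterone hydroxylase and the most abundant member, ran from 1142 to 2901 CPM in CON with a median of 2267. In MR it ran from 1070 to 1947 CPM with a median of 1553. All 6 MR libraries lay below the CON mean, and all but MR3113 lay inside the CON range. The log2 fold change of -0.53 ± 0.20 did not pass (adjusted p 0.201), although it did without CON3107, the lowest CON library (adjusted p 0.0414). Cyp2d22 had 281 to 519 CPM in CON, 195 to 312 in MR and a log2 fold change of -0.50 ± 0.16 (adjusted p 0.129). Cyp2d10, which follows Cyp2d9 in level within Cyp2d, had 953 to 2183 CPM in CON, 1131 to 1691 in MR and a log2 fold change of 0.07 ± 0.18.

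The Cyp2j genes, epoxygenases of arachidonic acid, are neighbours on chromosome 4, and 1 of the 3 fell. Cyp2j6, at 96516138 to 96564305, ran from 92.0 to 159.9 CPM in CON with a median of 120.1, and from 54.5 to 93.7 in MR with a median of 58.8. Only MR3101 reached the CON range, and the other 5 MR libraries were at most 69.1 CPM. The log2 fold change was -0.94 ± 0.17 (adjusted p 0.00613). Cyp2j5, the most abundant of the subfamily, had 710.3 to 869 CPM in CON and 515 to 731 in MR. Again MR3101 alone overlapped with CON, and the log2 fold change of -0.40 ± 0.10 missed the threshold (adjusted p 0.0572). It passed in 5 of 21 alternatives. These were DESeq2 (adjusted p 0.00347), limma voom, upper-quartile factors, a minimum count of 30 and the fit without MR3101 (adjusted p 0.0182). Cyp2j9 had 7.66 to 14.6 CPM in CON and 7.96 to 18.4 in MR (0.44 ± 0.20, adjusted p 0.332).

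**Figure D2:**
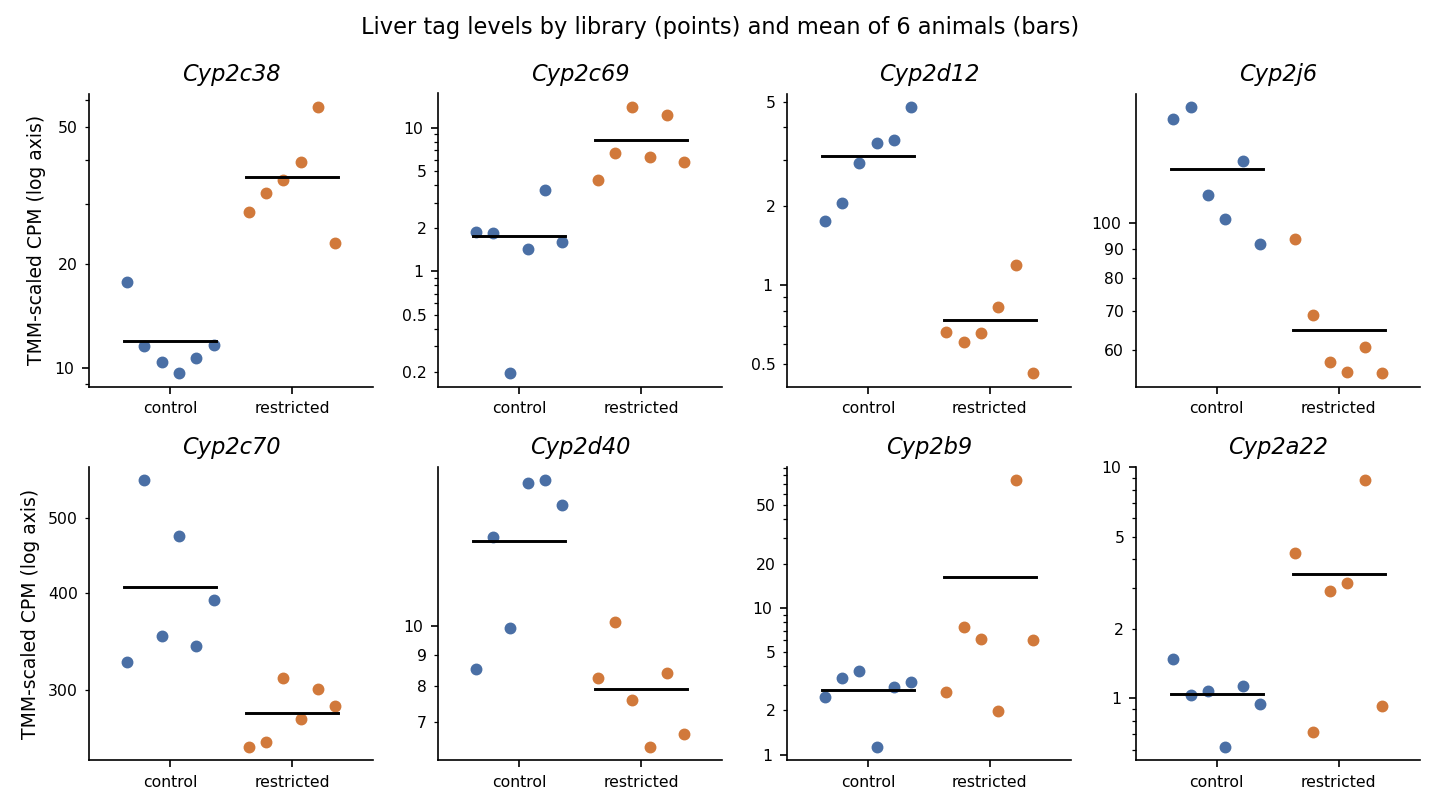
TMM-scaled CPM (log y axis, its own range in each panel) of 8 genes in 6 control and 6 restricted livers; points are libraries and bars are group means. Cyp2c38, Cyp2c69, Cyp2d12 and Cyp2c70 show no overlap between diets, Cyp2j6 and Cyp2d40 overlap, and the mean of Cyp2b9 is drawn up by a single library at 73.9 CPM.

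The members with the largest uncalled differences were both of chromosome 7. Cyp2b9, a female-biased gene, ran from 1.13 to 3.71 CPM in CON with a median of 2.99. In MR it ran from 1.99 to 73.9 CPM with a median of 6.05. MR3113 held the 73.9 CPM, the next library 7.43, and 2 of 6 MR libraries lay below the CON mean. The log2 fold change was 2.56 ± 0.79 (adjusted p 0.116) with MR3113 and 0.78 ± 0.35 (adjusted p 0.363) without it. Cyp2a22 ran from 0.616 to 1.47 CPM in CON and from 0.712 to 8.77 in MR, where 4 libraries exceeded every CON library and MR3113 was again the highest. Its log2 fold change of 1.73 ± 0.49 did not pass (adjusted p 0.088), but passed with DESeq2 (adjusted p 0.0143), with library totals alone (adjusted p 0.0342) and without MR3102 (adjusted p 0.0305). MR3113 was the highest MR library for 5 of the 31 members and the lowest for 5.

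Cyp2a12, a steroid hydroxylase whose coding sequence is 96.96% identical to that of Cyp2a22, had 304 to 447 CPM in CON and 257 to 348 in MR. Its log2 fold change was -0.18 ± 0.11 (adjusted p 0.478), and 0.002 with library totals alone. Cyp2e1, which oxidises ethanol and acetone, had 676 to 1008 CPM in CON and 856 to 1260 in MR (0.16 ± 0.14, adjusted p 0.652). Cyp2f2, best known for activating naphthalene, had 727 to 1294 CPM in CON and 562 to 820 in MR (-0.40 ± 0.15, adjusted p 0.204). The diets overlapped for all 3 genes.

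The 4 Cyp3a genes, the main drug-metabolising P450s and classic targets of PXR, gave no call by edgeR or DESeq2, with 1 of 4 at an unadjusted p under 0.05, and their log2 fold changes lay between -0.31 and 0.29. Cyp3a11, the most abundant, ran from 946 to 1842 CPM in CON with a median of 1404, and from 949.5 to 2237 in MR with a median of 1466. Its log2 fold change of 0.09 ± 0.22 (adjusted p 0.887) took the opposite sign without CON3114 or without MR3113. Cyp3a13 was higher than the CON mean in 6 of 6 MR libraries, at 87.5 to 119.9 CPM in CON and 107.6 to 158.5 in MR (0.29 ± 0.12, adjusted p 0.242). Of the members with roles outside drug clearance, Cyp2r1, which carries out the first activation step of vitamin D, had 20.3 to 30.1 CPM in CON and 16.6 to 27.3 in MR (-0.19 ± 0.14, adjusted p 0.552). Cyp2u1, a fatty acid hydroxylase, had 2.85 to 6.71 CPM in CON and 2.86 to 7.28 in MR (-0.09 ± 0.25, adjusted p 0.902).

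Each of the 6 changed genes was also set against the member closest to it in coding sequence, as the log2 ratio of their counts in the same library with 0.5 added to each. Such a ratio does not depend on how libraries are scaled. The 6 genes were taken because they had passed the diet test in these same libraries, so their ratios are a description and no test of them is given. Cyp2c38 to Cyp2c29, 89.14% identical, stood at -3.63 ± 0.39 in CON and -1.44 ± 0.91 in MR (SD, n = 6 each), and the diets did not overlap. Cyp2c69 to Cyp2c67, 97.7% identical, stood at -8.53 ± 1.31 in CON and -6.28 ± 0.72 in MR, again with no overlap.

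The diets overlapped for the other 4 pairs. The ratio of Cyp2d12 to Cyp2d9, 92.15% identical, was -9.46 ± 0.58 in CON and -10.93 ± 0.69 in MR, where MR3113 alone reached the CON range. That of Cyp2j6 to Cyp2j9, 82.61% identical, was 3.54 ± 0.55 in CON and 2.18 ± 0.73 in MR, where MR3101 alone did. Cyp2d40 to Cyp2d10 differed by -0.87 between the diets, at an identity of 57.23% over a short coding model of 1017 bases. Cyp2c70 to Cyp2c37, 68.94% identical, differed by -1.69, with CON from 7.21 to 11.82 and MR from 6.60 to 7.94, and Cyp2c37 had only 1 to 25 tags a library.

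**Figure D3:**
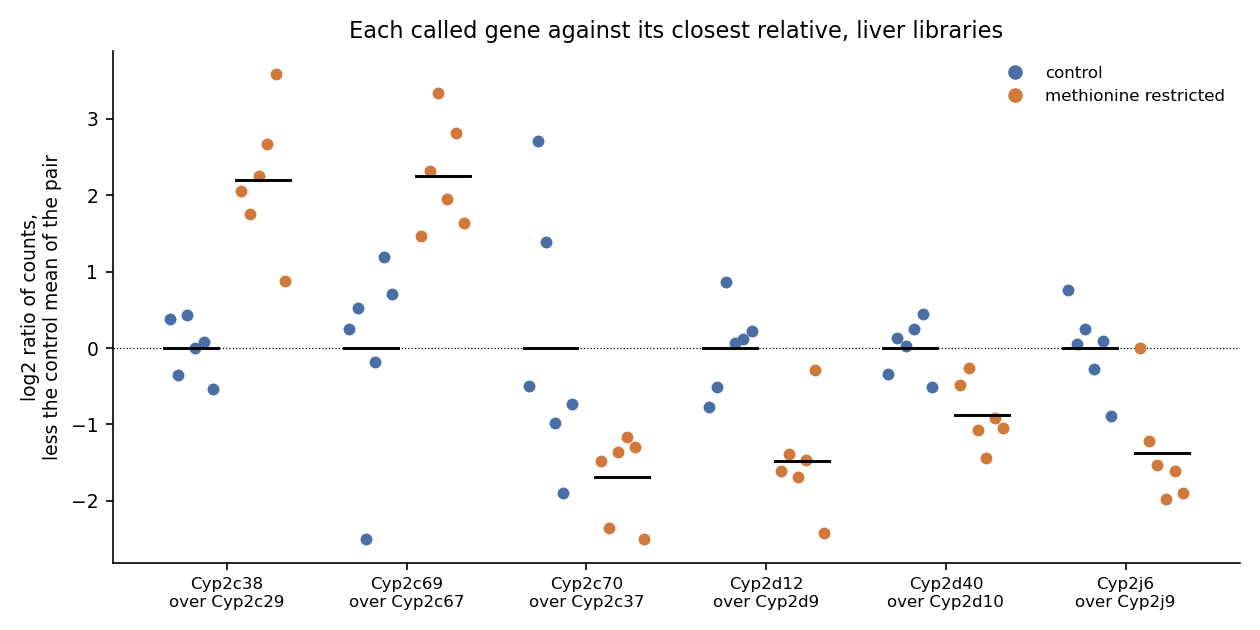
Log2 ratio of counts of each changed gene to its closest relative in the 12 liver libraries (y axis, less the control mean of the pair; x axis, the 6 pairs); points are libraries and bars are group means. The restricted libraries lie wholly above the control libraries for Cyp2c38 and Cyp2c69, while the diets overlap for the 4 pairs on the right.

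The genes that regulate or serve these P450s were given by lists, with no test of a list as a whole. The lists were chosen with earlier results of these data known, so their counts are a description. Over all genes tested edgeR called 1.05% higher and 1.21% lower, with 14.5% at an unadjusted p under 0.05. DESeq2 called 199 higher and 291 lower of all 10969 genes. Of 23 tested nuclear receptors and partner factors, 0 rose and 1 fell. At an unadjusted p under 0.05 stood 5, and DESeq2 called 1 higher and 2 lower. The gene that fell was Cebpa, a hepatocyte transcription factor, at 1323 ± 60.0 CPM in CON and 948 ± 93.1 in MR (-0.48 ± 0.09, adjusted p 0.012). Nr1i2 stood at 27.6 ± 4.28 CPM in CON and 29.0 ± 4.58 in MR (0.07 ± 0.13, adjusted p 0.844). Nr1i3 stood at 21.1 ± 5.23 and 28.5 ± 6.72 CPM (0.43 ± 0.18, adjusted p 0.274). Of the 6 electron donors 0 were called by edgeR, with 2 at an unadjusted p under 0.05 and 1 called by DESeq2. Por, the reductase itself, was at 159.85 ± 59.3 CPM in CON and 225.75 ± 40.6 in MR (0.50 ± 0.25, adjusted p 0.371). Of the 12 genes of haem synthesis and breakdown 0 were called by either, with 1 at an unadjusted p under 0.05. Alas1, the first enzyme of haem synthesis, varied widely, at 529 ± 460.5 CPM in CON and 318.5 ± 206.8 in MR (-0.73 ± 0.53, adjusted p 0.571).

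Of 22 tested genes outside the P450s that CAR or PXR can induce, 4 rose and 1 fell, with a median log2 fold change of 0.262 beside 0.01 for all genes, and 0.438 beside 0.19 with library totals alone. Gstm1, a glutathione transferase, rose from 736 ± 55.6 to 1339 ± 157.6 CPM (0.86 ± 0.10, adjusted p 0.000378). Gsta4, another, rose by 0.99 ± 0.18 (adjusted p 0.00795), Gadd45b by 1.72 ± 0.40 (adjusted p 0.0351) and the glucuronosyltransferase Ugt2b36 by 0.43 ± 0.10 (adjusted p 0.0351). Thrsp, a lipogenic gene, fell by 1.79 on the log2 scale (adjusted p 0.00349). Cyp2c29 and Cyp3a11, which the same receptors can induce, did not pass, as given above. Cyp2b10 was below the minimum for members, with a mean raw count of 1 and at most 4 in a liver library.

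The sex-biased genes were listed because several members belong to them. These lists too were chosen with earlier results of these data known, so their counts are a description. Of 16 tested male-biased genes, Cyp2d9 among them, 0 rose and 7 fell, beside 1.05% and 1.21% of all genes. Under each of 4 scalings 16 of 16 had a negative log2 fold change. Of all 10969 genes, 5320 were negative with TMM and 2516 with library totals alone. Their median was -0.581 beside 0.01 for all genes, and -0.389 beside 0.19 with library totals alone. Cyp4a12b, a fatty acid hydroxylase, fell from 31.1 ± 4.53 to 5.83 ± 4.06 CPM (-2.42 ± 0.37, adjusted p 0.00191). Mup21, a major urinary protein, fell by 1.62 (adjusted p 0.00191), Serpina12 by 2.40 (adjusted p 0.00285) and Ugt2b1 by 0.62 (adjusted p 0.0106) on the log2 scale. Mup21, Ugt2b1 and Cyp4a12b have near copies and are uncertain at the level of the single gene.

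Of 10 listed P450s of female-biased expression, 3 could be tested. Cyp2c69 rose, and Cyp2b9 and Cyp2g1 had log2 fold changes of 2.56 and 0.64 with adjusted p of 0.116 and 0.594. Of 8 other female-biased genes, 2 rose. They were Cyp4a14, a fatty acid hydroxylase (2.88 ± 0.24, adjusted p 1.3e-05), and Prlr, the prolactin receptor (0.95 ± 0.22, adjusted p 0.0298). Of 11 tested genes of growth hormone signalling, 1 fell, the receptor Ghr, from 888 ± 151.9 to 585 ± 49.9 CPM (-0.60 ± 0.12, adjusted p 0.0135). Igf1, a hormone that growth hormone induces, was at 996 ± 251 and 661 ± 62.3 CPM (-0.59 ± 0.15, adjusted p 0.0572). Stat5b, which carries the receptor's signal to the nucleus, was at 22.5 ± 5.00 and 27.3 ± 2.74 CPM (0.28 ± 0.14, adjusted p 0.369).

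Zonation was described by 2 further lists, since pericentral hepatocytes carry most drug-metabolising P450s. Of 16 pericentral genes 2 fell, Rgn (-0.51 ± 0.10, adjusted p 0.0123) and the ammonium transporter Rhbg (-1.30 ± 0.30, adjusted p 0.0358). Of 18 periportal genes 1 fell, Aldh1b1 (-1.44 ± 0.27, adjusted p 0.00829). Over all genes edgeR called 1.05% higher and 1.21% lower. At an unadjusted p under 0.05 stood 6 pericentral and 7 periportal genes, beside 14.5% of all genes. DESeq2 called 3 pericentral and 2 periportal genes lower and 0 higher. With library totals alone 0 pericentral genes were called, and of the periportal genes 1 was higher and 1 lower. Of the 18 hepatocyte markers 1 fell, Serpina3k (-0.81 ± 0.17, adjusted p 0.0158). Among other P450s of families 1 and 4, 1 of 11 rose (Cyp4a14) and 2 fell (Cyp4a12a and Cyp4a12b). Of 10 P450s of sterol and bile acid metabolism 1 rose, the oxysterol hydroxylase Cyp39a1 (2.15 ± 0.22, adjusted p 9.5e-05). At an unadjusted p under 0.05 stood 2 of the hepatocyte markers, 5 of the 11 and 2 of the 10. DESeq2 called 1 hepatocyte marker lower, 2 of the 11 higher and 3 lower, and 1 of the 10 higher.

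Outside liver most members were nearly absent. For 23 of the 31 the median level in each other tissue was under 1% of the liver median. The summed level of these 23 was 7001 to 8825 CPM in liver, 8.41 to 508 in inguinal fat, 1.502 to 215.7 in brown fat and 0.684 to 13.1 in gastrocnemius. Single libraries held the top of the fat ranges: CON3103 with 508 CPM and MR3113 with 419 in inguinal fat, and CON3106 with 215.7 in brown fat, where no other library exceeded 4.37. The 18 hepatocyte markers were high in the same libraries, at 17324, 12379 and 5693 CPM, beside 145 to 516 CPM in the other brown fat libraries and 1129.5 to 6596 CPM in the other inguinal fat libraries. The highest of the latter, CON3114, held 148 CPM of the 23 genes. In brown fat CON3106, Cyp2d9 had 862 tags and Cyp3a11 had 320. All 18 hepatocyte markers were detected in both fats, and 17 in gastrocnemius, where Serpina1b was at 0. Their part in the levels of these P450s in fat was not tested.

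**Figure D4:**
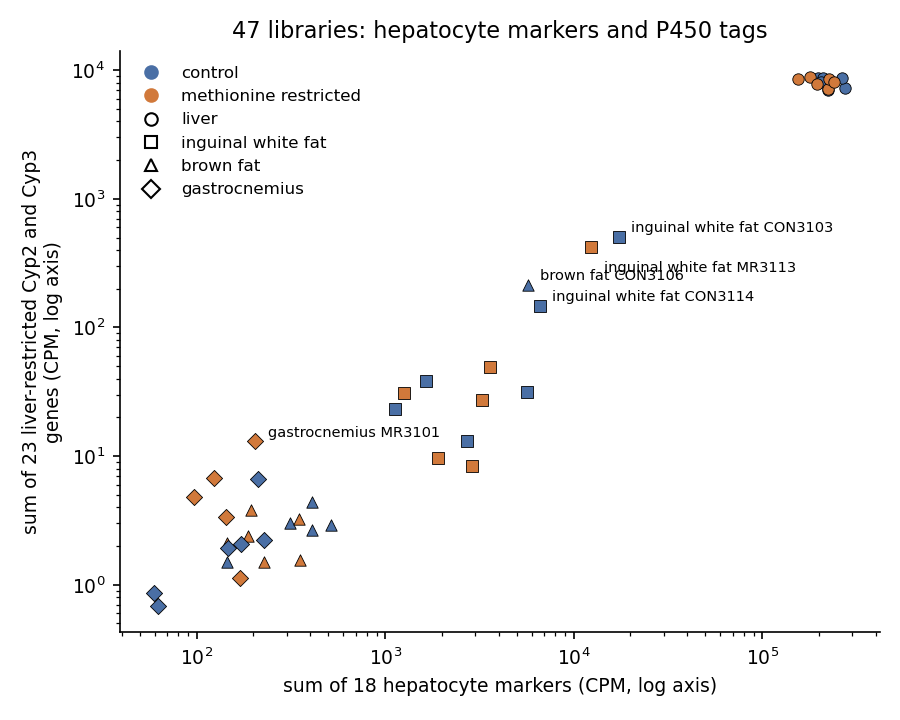
Summed CPM of the 23 liver-restricted genes (log y axis) against summed CPM of 18 hepatocyte markers (log x axis) in 47 libraries; shape gives the tissue and colour the diet. Liver libraries sit at 7001 CPM or more, and inguinal fat CON3103, MR3113 and CON3114 and brown fat CON3106 have the highest sums of the 23 genes outside liver, between 148 and 508 CPM.

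The other 8 members had levels of their own outside liver. In median CPM of library totals, Cyp2j9 was at 12.6 in liver and 16.97 in inguinal fat, Cyp2u1 at 5.27 in liver and 5.61 in brown fat, and Cyp2j6 at 84.1 in liver, 38.9 in inguinal fat and 35.3 in brown fat. Cyp2d22 was at 304 in liver, 98.9 in brown fat, 68.6 in inguinal fat and 11.7 in gastrocnemius. Cyp2e1 was at 912 in liver and 64.8 in inguinal fat. Cyp2r1, Cyp2f2 and Cyp2c38 reached 10.2%, 1.52% and 1.05% of the liver level in inguinal fat, the highest of the other tissues.

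No member passed the diet test in the other tissues when each was fitted alone with edgeR on all its libraries. The edgeR fit of all 47 libraries, which tests more members, called Cyp2u1 in inguinal fat and Cyp2f2 in brown fat. That is 1 of 31 members in each, beside 446 and 41 of 13541 genes. Cyp2f2 in brown fat was at 19.6 CPM in CON3106, the library high in hepatocyte markers, beside a CON median of 0.559. Its highest MR value was 0.743 CPM, and in brown fat alone it was below the count filter. The part of CON3106 in this call was not tested. In inguinal fat 12 members were tested and 0 were called, beside 0.027% of all genes, with 0 at an unadjusted p under 0.05 (8.78% of all genes) and 0 called by DESeq2 or limma voom. The count stayed 0 without CON3103 and MR3113, and without the 3 libraries that stood apart. In gastrocnemius 7 were tested and 0 called, beside 0% of all genes, again with 0 at an unadjusted p under 0.05 (6.32% of all genes) and 0 by both other tools. In brown fat 6 were tested and 0 called, beside 1.11% of all genes, with 1 at an unadjusted p under 0.05 (13.6% of all genes).

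That member was Cyp2d22. Brown fat held 49.0 to 101.9 CPM in CON with a median of 67.9, and 101.0 to 169.7 in MR with a median of 111.8. Only CON3115 overlapped with MR. Restriction gave a log2 fold change of 0.80 ± 0.18 (adjusted p 0.0555), and it passed with DESeq2 (adjusted p 0.00359), with limma voom (adjusted p 0.0445) and without CON3115 (0.94, adjusted p 0.0221). Without CON3106, the library high in hepatocyte markers, it was 0.76 ± 0.20 (adjusted p 0.118). Cyp2e1 in brown fat changed sign with that library, from -0.40 ± 0.61 to 0.80 ± 0.34 without it (adjusted p 0.389).

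Whether the diet difference in liver differed from that in another tissue was tested in 1 fit of all 47 libraries. Against inguinal fat 1 of 31 members passed, beside 0.591% of 13541 genes, with 4 at an unadjusted p under 0.05 (7.67% of all genes). Against brown fat 0 passed, beside 0.103%, with 14 at an unadjusted p under 0.05 (6.57% of all genes). Against gastrocnemius 0 passed, beside 0.0295%, with 2 at an unadjusted p under 0.05 (7.84% of all genes). Limma voom also gave 1, 0 and 0. Apart from Cyp2d22 and Cyp2j6, the 14 in the brown fat contrast had brown fat log2 fold changes between -5.57 and -2.08 beside the high values of CON3106 given above. Without animal CON3106 the number at an unadjusted p under 0.05 fell from 14 to 2 and the members' median difference went from 2.41 to -0.05, and limma voom on all libraries gave 6.

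Cyp2u1 was the member that passed. In inguinal fat CON3103, CON3106, CON3107, CON3112, CON3114 and CON3115 had 2, 1, 7, 2, 9 and 0 tags of it. Of the MR libraries, MR3101 had 33, MR3102 had 21, MR3104 had 26, MR3109 had 30, MR3113 had 22 and MR3116 had 1. MR3116 is among the libraries that stood apart, and the other 5 exceeded every CON library. In liver the ranges overlapped almost fully, at 29 to 67 tags in CON and 31 to 73 in MR. The fit gave log2 fold changes of -0.10 in liver and 2.84 in inguinal fat, a difference of -2.95 ± 0.66 (adjusted p 0.0193). The call was lost in 6 of 12 fits that left out 1 animal, namely CON3106, CON3112, CON3115, MR3102, MR3109 or MR3113 (adjusted p up to 0.0724). In inguinal fat alone the gene was below the count filter, and with no filter its log2 fold change was 2.81 ± 0.77 (adjusted p 0.29). Without the 3 libraries that stood apart it was 2.59 ± 0.45 (adjusted p 0.0658). On the library-total scale, the summed stellate cell and fibroblast markers in inguinal fat did not overlap between diets. They were 1971 to 6161 CPM in CON and 1021 to 1535 in MR. The lymphocyte sum had medians of 16.2 in CON and 446 in MR, and the adipocyte sum 63335 and 48379, both with overlapping ranges. The part of these cells in the Cyp2u1 difference was not tested.

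Cyp2d22 and Cyp2j6 had differences of the same kind that did not pass. Cyp2d22 was at -0.52 in liver and 0.81 in brown fat (difference -1.33 ± 0.43, adjusted p 0.422). Cyp2j6 was at -0.95 in liver and 0.45 in brown fat (difference -1.40 ± 0.51, adjusted p 0.58). The liver part of each is the comparison already given, so these are not separate evidence on liver.

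**Figure D5:**
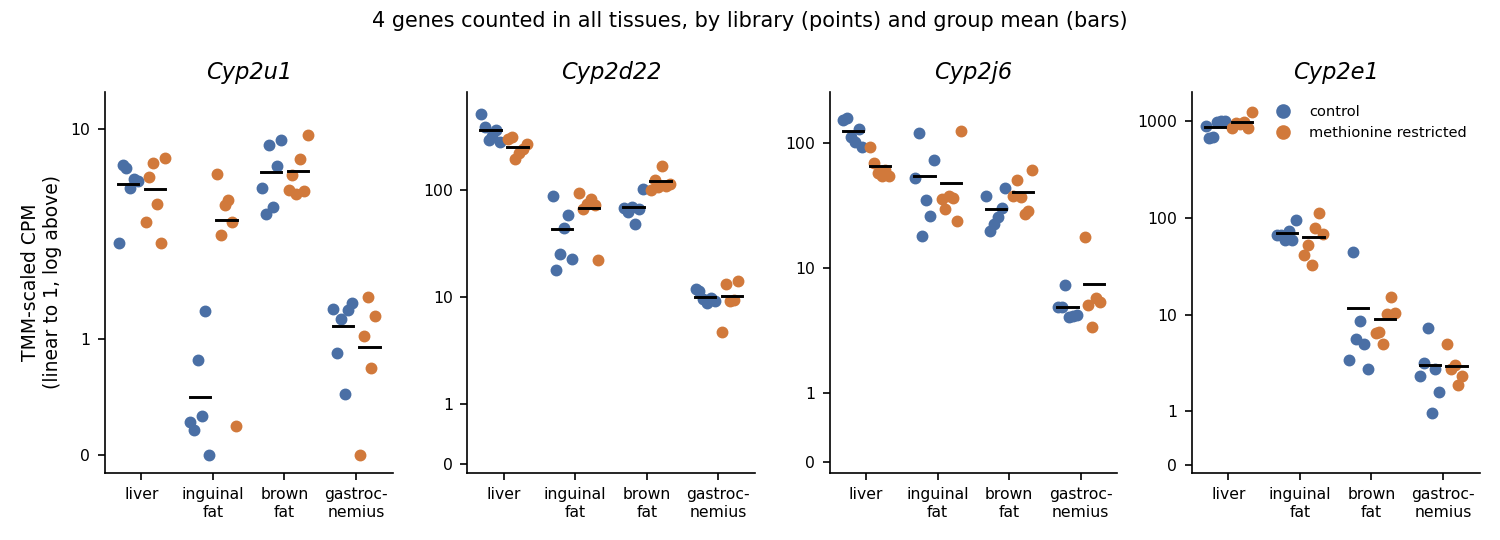
TMM-scaled CPM (y axis, linear to 1 and log above) of 4 members in liver, inguinal fat, brown fat and gastrocnemius by diet; points are libraries and bars are group means. Restricted libraries of Cyp2u1 are above the control libraries in inguinal fat except for 1, and the diets overlap for Cyp2d22 in liver and in brown fat.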

How the data were processed

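The authors deposited 1 table of raw counts per tissue, whole numbers of 3′ tags per gene symbol and library with no normalization, and 1 table of normalized signal per tissue, made with DESeq per the submitters' processing notes. Per the labels' protocols, tags mapped to a single gene were kept, so counts of near-identical P450 genes depend on which tags are unique. The sources used here name no aligner. Builds named by the notes are mm10 and GRCm38.p1.

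The raw counts were tested within each tissue with edgeR 4.0.16 (R 4.3.3), with TMM factors after the default filterByExpr filter, whose minimum count is 10. Differences between tissues came from a single edgeR fit of all 47 libraries over the 26583 symbols that the 4 tables share. Diet levels are TMM-scaled CPM, a choice made after seeing that library totals alone shifted the median liver gene, and levels across tissues are CPM of library totals. Standard errors were worked back from F. The liver fit and the fit of all 47 libraries were run on simulated data, with changes placed only on genes above a minimum count. Such runs do not cover the scarcest members or a single library that stands apart. Predicted tags came from the protein-coding transcripts of GENCODE vM1, coding identity from global alignment (Biopython 1.88), and places from RefSeq genes on GRCm38.p6. The members and gene lists were chosen with earlier results of these data known.

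Named members are those called in liver or in a difference between tissues, the most abundant of each subfamily and the 8 uncalled with the largest fold change. From each list, up to 4 called genes with the smallest p were named, and always Por, Nr1i2, Nr1i3, Alas1, Stat5b and Igf1. Other members and genes were named after their values were seen, as were the ratios to closest relatives and the fits without sets of libraries. Each animal is a replicate. Alternatives were DESeq2 1.42.0, limma 3.58.1 (voom, and the deposited signal on a log2 scale with a pseudocount of 1 or 0.5), other scalings and filters, the joint fit, an animal block and leaving out animals or libraries. The 4 tissues come from the same animals by their numbers in the labels, and the mean correlation of deviations between same-numbered libraries was 0.067 for liver and inguinal fat, -0.023 for liver and brown fat and 0.038 for liver and gastrocnemius.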

Additional observations from a re-analysis of the deposited data

Results flagged for a closer look

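In each diet group of each tissue the highest and the lowest library were compared with the rest, for every member tested there. Of 112 groups 25 had a library set apart by a gap larger than Dixon's 95% critical value. That value gives about 1 in 20 by chance only for independent groups of normally distributed values. The values here were CPM on a linear scale and the groups share libraries, so the count is no measure of an excess. In liver, 7 of 62 groups did: Cyp2b9 in MR3113 (73.9 CPM, the next 7.43), Cyp2c38 in CON3103 (17.8 CPM), Cyp2d10 in CON3115 (2183 CPM), Cyp2e1 in MR3116 (1259.6 CPM), Cyp2j5 in MR3101 (731 CPM), Cyp2j6 in MR3101 (93.7 CPM) and Cyp3a13 in MR3102 (158.5 CPM). All were high values.

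In inguinal fat the libraries set apart were those with the highest hepatocyte markers, or 1 that stood apart as a whole. MR3113 was high for Cyp2a12 (16.7 CPM), Cyp2c70 (20.03 CPM), Cyp2d10 (73.0 CPM), Cyp2d9 (117.0 CPM) and Cyp3a11 (48.8 CPM). CON3103 was high for Cyp2c44 (79.5 CPM), Cyp2d9 (151.6 CPM) and Cyp3a11 (102.7 CPM). MR3116 was high for Cyp2j6 (125.6 CPM) and Cyp2j9 (82.0 CPM). In brown fat Cyp2d22 was high in MR3109 (169.7 CPM) and Cyp2e1 in CON3106 (44.2 CPM, the next 8.66).

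In gastrocnemius MR3101, which stood apart as a library, was high for Cyp2d10 (4.12 CPM), Cyp2f2 (4.51 CPM), Cyp2j6 (17.7 CPM) and Cyp2j9 (18.4 CPM). CON3107 was high for Cyp2e1 (7.20 CPM) and Cyp2j6 (7.29 CPM).

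The diet difference of Cyp2u1 differed between liver and inguinal fat by the test of the difference itself, with -2.95 on the log2 scale for liver less inguinal fat.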

How the results depend on the processing

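In liver the members called higher (2) became 4 with library totals alone and 0 in the fit of all 47 libraries. The members called lower (4) became 2 with library totals alone and 1 in the fit of all 47 libraries. With limma on the authors' normalized values they became 2, at a pseudocount of 1 or 0.5. Over all genes the fit of all 47 libraries called 29 by diet in liver, in place of 248. Leaving out 1 animal gave 2 to 3 higher and 2 to 5 lower, the 2 coming without CON3106, CON3112, CON3115, MR3104, MR3109, MR3113 or MR3116. DESeq2 called 3 higher and 5 lower. It also called more of all 10969 genes, 199 higher and 291 lower in place of 115 and 133. Members called in inguinal fat went from 0 to 1 (Cyp2u1) in the fit of all 47 libraries, which tests more members there. All genes called there went from 3 to 446. In brown fat 0 became 1 with DESeq2, with limma voom (Cyp2d22 in both) and in the fit of all 47 libraries (Cyp2f2). Over all genes these fits called 317, 137 and 41. Cyp2f2 there was at 19.6 CPM in CON3106, beside a CON median of 0.559. Leaving out 1 animal in brown fat gave 0 to 1, the 1 coming without CON3115. In gastrocnemius it was 0 in each of 20 alternatives. The difference between liver and inguinal fat gave 0 to 1 called members when 1 animal was left out, the 0 coming without MR3102, CON3106, MR3109, CON3112, MR3113 or CON3115. The cause of these shifts was not tested. The sign changed for Cyp2a12 (0.002), Cyp2u1 (0.096), Cyp2c50 (0.161), Cyp2c54 (0.066) and Cyp2d26 (0.124) with library totals alone, for Cyp2u1 (0.022) and Cyp3a11 (-0.062) without MR3113, and for Cyp3a11 (-0.012) without CON3114. Over the fits without 1 animal Cyp2u1 ran from -0.234 to 0.022 and Cyp3a11 from -0.062 to 0.195. Cyp2c50 also went from -0.03 to 0.002 without MR3113. All of these were uncalled. The animal as a replicate block left 1 call against inguinal fat, Cyp2u1 (-3.02, adjusted p 0.0328, against 0.0269 with no block), and 0 against brown fat and gastrocnemius, so pairing by animal changed no call. Tags under 10 a library, as in Cyp2a22, Cyp2c37, Cyp2c54, Cyp2d12 and Cyp2c69, limit the precision of those members.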
